A study of Betula luminifera with 4 samples.

Results

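miR160 and miR167 are microRNA families that act on auxin response factors, and their mature forms were followed here in the birch Betula luminifera. Members were chosen by name, with earlier results of these data known. Each row of the deposited miRNA table named miR160 or miR167 was taken, with all arms and lengths. Each distinct sequence was counted once. This gave 11 of 215 distinct sequences, 5 of miR160 and 6 of miR167. The plants were 1 clone, G49#, raised in tissue culture for 2 months and moved to sand. Phosphate-deficient plants (LP) received medium with no KH2PO4, in which the potassium was made up with K2SO4, and control plants (CK) received 1.25 mM KH2PO4; both had first been given phosphate and then deionized water. Each of the 4 groups, root LP, root CK, shoot LP and shoot CK, has 1 small RNA library, and stem and leaf RNA was pooled for the shoot libraries. The 54 plants stood in blocks with 3 replicates that the labels do not tie to libraries, and the length of the treatment was not given in the sources used here.

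Auxin response factors are transcription factors that bind the promoters of auxin-responsive genes. In Arabidopsis, miR160 cuts the transcripts of ARF10, ARF16 and ARF17, which repress transcription, and miR167 those of ARF6 and ARF8, which activate it. There, miR160 is known for its part in root cap formation and miR167 for its part in adventitious rooting. Each is cut from a hairpin RNA whose 5p arm is usually loaded into an Argonaute protein, while the 3p arm, the passenger strand, is usually lost. Plant miRNAs mostly begin with U, and 22-nt forms are known as triggers of secondary small RNAs.

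The sequences below are those of the deposited table, 5′ to 3′, with T for U and the seed, bases 2 to 8, in capitals. They are shown because miR160b and miR160d differ from miR160a, and miR167b from miR167a, only at the 3′ end, while their values differ. The remaining form, miR167d-3p, is not listed.
miR160a: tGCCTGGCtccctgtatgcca
miR160b: tGCCTGGCtccctgtatgct
miR160c: tGCCTGGCtccctgaatgcca
miR160d: tGCCTGGCtccctgtatgtt
miR160a-3p: gCGTATGAggagccaagcata
miR167a: tGAAGCTGccagcatgatctt
miR167b: tGAAGCTGccagcatgatctga
miR167c: tAAAGCTGccagcatgatctgg
miR167a-3p: aGATCATGcggcagtttcacc
miR167b-3p: aGATCATGtggcagtttcacc
The 4 forms of the miR160 5p arm share 1 seed, and miR167a and miR167b share another. miR167c carries a different seed because of 1 substitution, G2A relative to miR167a, with positions counted from 1 at the 5′ end. No sequence outside the families had any of the 6 seeds found among the members. miR160a and miR160c have 21 bases and differ by T15A, whereas miR160b and miR160d have 20 bases and differ from miR160a by C20T and by C19T and C20T. miR167a has 21 bases and miR167b 22, and they share their first 20 bases. The 7 sequences of the 5p arms begin with T and the 4 of the 3p arms, miR167d-3p included, do not.

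Deposited hairpin entries that hold miR160a and miR167a are shown because both arms of each were counted, with capitals as the authors wrote them. For miR167a this is the longer of its windows, the entry of miR167a-3p, whose first run of capitals goes 1 base past the 21 bases of miR167a.
miR160a hairpin: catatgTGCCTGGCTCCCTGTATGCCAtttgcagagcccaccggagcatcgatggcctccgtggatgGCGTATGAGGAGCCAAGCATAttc
miR167a-3p hairpin: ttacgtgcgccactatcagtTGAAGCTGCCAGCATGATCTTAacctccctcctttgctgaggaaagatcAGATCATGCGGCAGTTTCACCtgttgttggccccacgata
The first lies on transcript TRINITY_DN27612_c0_g1 of the authors' assembly, positions 93 to 183, plus strand, and the second on TRINITY_DN45989_c0_g1, positions 53 to 161, plus strand. No genome build or gene annotation was used here, so exon or UTR context is not given. In the deposited fold, 16 of 21 bases of miR160a pair with miR160a-3p, and 19 of 21 bases of miR167a pair with miR167a-3p. The table assigns miR167b to the same entry as miR167a-3p, but its sequence differs from that hairpin by G21T (miRNA base, position in the miRNA, hairpin base), and miR167b-3p, assigned to the shorter window, differs by T9C. Likewise miR160b and miR160c differ from the transcripts given for them by T20C and A15C. The loci of these 4 sequences are thus uncertain. The entry of miR160c holds only 36 bases, against 91 for miR160a, and no precursor is given for miR160d.

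Over the distinct sequences the table holds 101816 reads for root LP, 308667 for root CK, 723599 for shoot LP and 1015833 for shoot CK, so precision was lowest in root LP. Levels are the authors' normalized values, which are raw reads times 1 constant per library, and ratios are plain quotients of them. As no group has a second library, no difference was tested and the spread between plants is unknown. Intervals after a ratio are 95% counting intervals: they cover counting error only, and PCR copies of a molecule make them too narrow. To be called, a member had to differ at least 2-fold and reach a normalized value of 10 in either library of the comparison. Of the miRNAs known from other plants as phosphate-starvation markers, miR399 had an LP over CK ratio of 1.03 (0.880 to 1.20) in roots and 0.749 (0.692 to 0.811) in shoots. miR2111 had a ratio of 4.45 (1.47 to 14.9) in roots from 10 LP and 6 CK reads. In shoots it had 1.51 (0.620 to 3.67) from 12 reads in each library, under the filter. The table had 0 sequences named miR827.

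The miR160 family was most abundant in root LP and least in shoot LP. Its summed level was 3991 in root LP, 2827 in root CK, 1653 in shoot LP and 3128 in shoot CK. As a share of the table's reads, which does not use the authors' constants, it held 1.44% (exact binomial interval 1.36% to 1.51%) in root LP and 0.896% (0.863% to 0.930%) in root CK. In shoots it held 0.293% (0.281% to 0.306%) under LP and 0.596% (0.581% to 0.611%) under CK. Thus LP stood above CK in roots and below it in shoots by either measure. These sums include miR160a-3p. For the 5p forms alone the LP over CK ratio was 1.74 (1.62 to 1.87) in roots and 0.454 (0.429 to 0.479) in shoots. For the whole family it was 1.41 and 0.528. The 5p shoot value, a log2 ratio of -1.14, is past 2-fold. Scaling by TMM adds 0.39 to it and the median of ratios 0.16, each of which ends that call.

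The miR167 family followed another order, with shoot LP far above the rest. Its summed level was 3821 in root LP, 2892 in root CK, 20571 in shoot LP and 8490.1 in shoot CK. It held 1.38% of the reads in root LP, 0.917% in root CK, 3.64% in shoot LP and 1.62% in shoot CK. The reads of miR167 and miR160 were nearly equal in number in roots, with a ratio of 0.958 (0.889 to 1.03) in root LP and 1.02 (0.970 to 1.08) in root CK. In shoots miR167 had 12.4 times (11.9 to 13.0) the reads of miR160 under LP and 2.71 times (2.63 to 2.80) under CK.

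**Figure D1:**
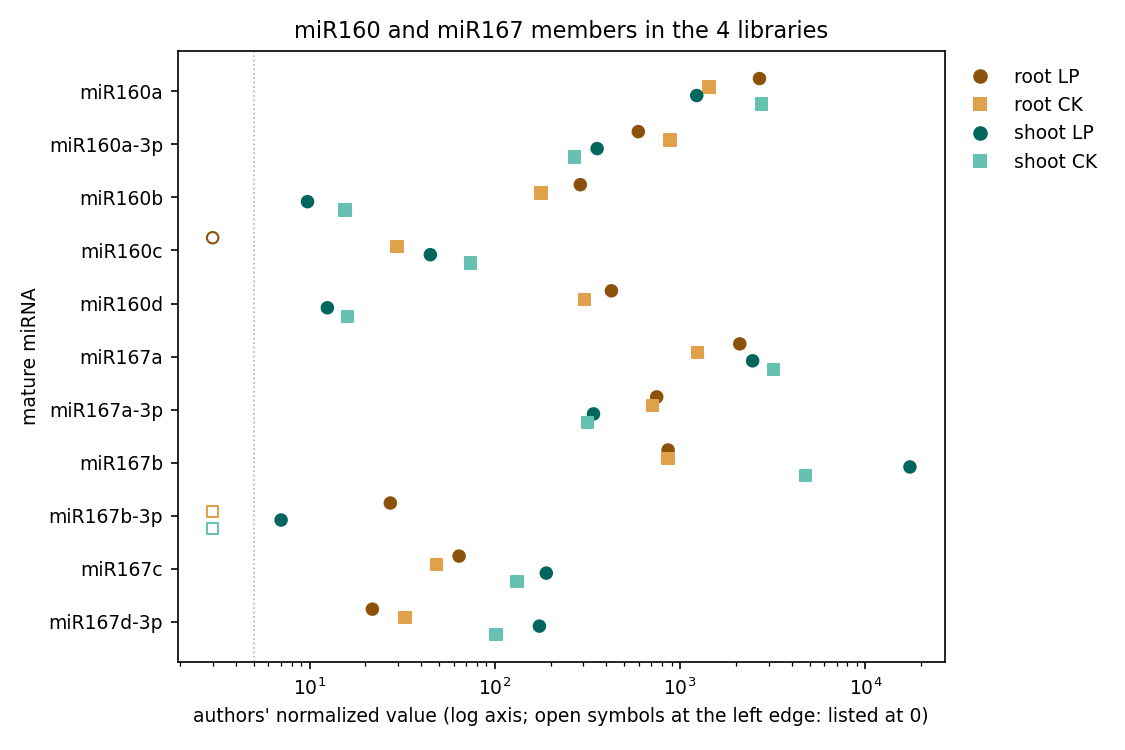
Authors' normalized value (log axis) of each of the 11 members in the 4 libraries, 1 symbol per library; open symbols left of the dotted line are values listed at 0. miR167b in shoot LP, at 17398, lies furthest to the right, and miR160b and miR160d lie further right in roots than in shoots.

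Among the guide-arm forms, miR160a, the main miR160, had a level of 2680.5 in root LP, 1435 in root CK, 1229.5 in shoot LP and 2753 in shoot CK. Root LP and shoot CK were close to each other on this scale and above the other libraries. As a share of the table's reads they stood further apart, at 0.964% in root LP, 0.455% in root CK, 0.218% in shoot LP and 0.525% in shoot CK. The LP over CK ratio of miR160a was 1.87 (1.72 to 2.03) in roots and 0.447 (0.422 to 0.472) in shoots. The shoot value is past the 2-fold line, but scaling by TMM or by the median of ratios ended that call, with log2 ratios of -0.77 and -0.998 in place of -1.16.

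miR160d, a 20-nt form of the same seed, had a level of 426 in root LP, 304 in root CK, 12.5 in shoot LP and 16.0 in shoot CK. miR160b, the other 20-nt form, had 289 in root LP, 178 in root CK, 9.75 in shoot LP and 15.5 in shoot CK. Both were thus mainly root forms. Their LP over CK ratios in roots were 1.40 (1.14 to 1.70) for miR160d and 1.63 (1.27 to 2.08) for miR160b, in the direction of miR160a. In shoots, 16 and 31 reads of miR160d and 12.5 and 30 reads of miR160b under LP and CK gave no difference detectable at this depth.

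miR160c, the form with a changed base in the middle, was listed at 0 in root LP, with 29 reads in root CK, 57.5 in shoot LP and 143.5 in shoot CK. Its normalized level was thus 29.6 in root CK, 44.9 in shoot LP and 74.1 in shoot CK, and its LP over CK ratio in shoots was 0.605 (0.440 to 0.830). No ratio is given for roots, because the table rarely lists single reads, 5 of 705 values above 0, and a 0 may hide reads.

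The passenger strand miR160a-3p went the other way from miR160a in both tissues. Its level was 595 in root LP, 881 in root CK, 357 in shoot LP and 269 in shoot CK. The LP over CK ratio was 0.676 (0.580 to 0.785) in roots and 1.32 (1.17 to 1.505) in shoots, under 2-fold in each.

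Of the miR167 guide forms, miR167b, 22 nt long, carried the shoot difference. It had 17398 in shoot LP and 4741 in shoot CK, a ratio of 3.67 (3.58 to 3.76), whereas roots had 861 under LP and 859 under CK, a ratio of 1.00 (0.879 to 1.14). The root libraries could not be told apart by counting error. Other scalings took the root log2 ratio of miR167b, 0.00401, to between -0.05 and 0.19.

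miR167a, the 21-nt form, had a level of 2099 in root LP, 1239 in root CK, 2462 in shoot LP and 3199.8 in shoot CK. Its LP over CK ratio was 1.69 (1.55 to 1.86) in roots and 0.769 (0.737 to 0.803) in shoots, and TMM scaling brought the shoot log2 ratio of -0.38 to 0.02. In roots both miR167a and miR160a were under 2-fold with the authors' constants, but by table total the log2 ratio of miR160a, 0.90, became 1.08, past 2-fold, while that of miR167a became 0.94.

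miR167c, the 22-nt form with its own seed, had a level of 64.1 in root LP, 48.5 in root CK, 189.6 in shoot LP and 132 in shoot CK. The passenger strand miR167d-3p, which the table places on the same hairpin, had 21.8 in root LP, 32.7 in root CK, 174 in shoot LP and 101 in shoot CK. In shoots their LP over CK ratios were 1.44 (1.20 to 1.72) and 1.72 (1.41 to 2.09), and TMM scaling took miR167d-3p past 2-fold, to a log2 ratio of 1.17 from 0.77. In roots, with 23.5 and 8 reads under LP, no difference was detectable at this depth.

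miR167a-3p, the passenger strand of miR167a, had similar levels under LP and CK with the authors' constants. It stood at 748 in root LP, 712 in root CK, 341 in shoot LP and 316 in shoot CK, with LP over CK ratios of 1.05 (0.910 to 1.21) in roots and 1.08 (0.951 to 1.22) in shoots, intervals that include 1. TMM scaling moved its shoot log2 ratio of 0.11 to 0.50. Its near-identical partner miR167b-3p, which differs by C9T, had 10 reads in root LP and 9 in shoot LP and was listed at 0 in both CK libraries.

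**Figure D2:**
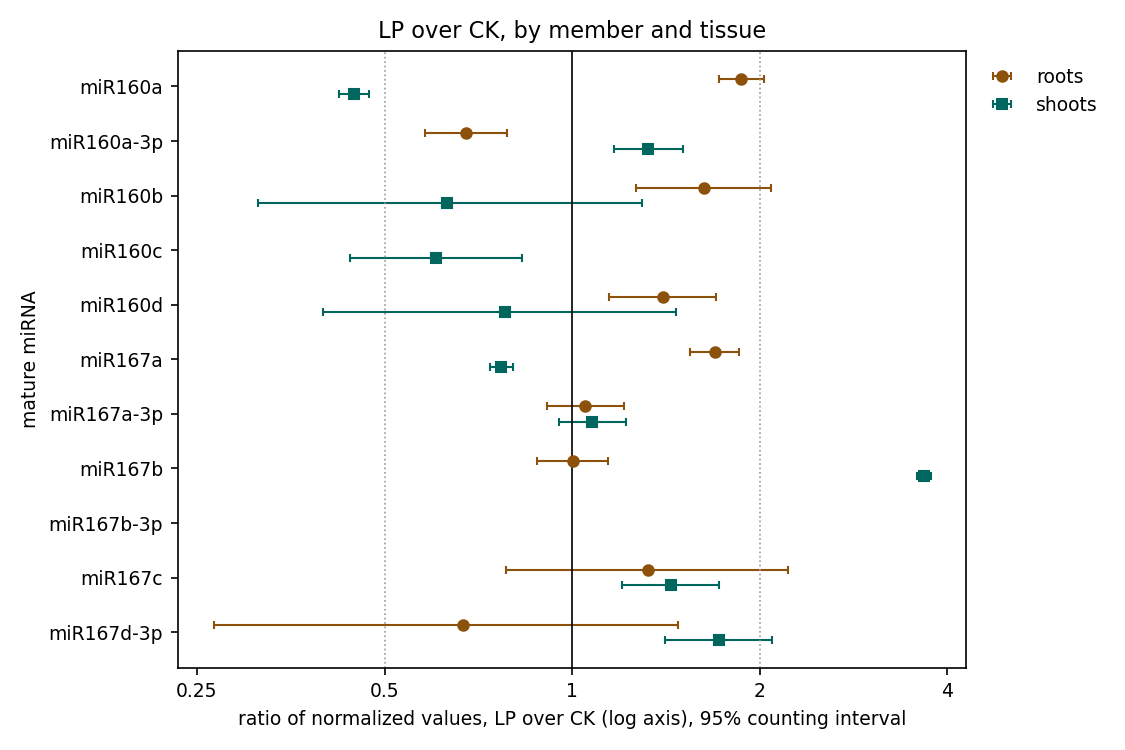
Ratio of normalized values, LP over CK (log axis), for each member in roots (circles) and shoots (squares), with 95% counting intervals; dotted lines mark 2-fold, and ratios against a value of 0 are not drawn. miR160a and miR167a lie above 1 in roots and below 1 in shoots (miR167a in shoots at a log2 ratio of 0.02 under TMM scaling), miR160a-3p the reverse, and miR167b is near 1 in roots and at 3.67 in shoots.

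By count, of 11 members past the filter in roots 1 was at least 2-fold higher under LP, miR167b-3p, and 1 lower, miR160c, each with a 0 in 1 library. Of all 143 sequences past the filter in roots, 24.5% were higher and 18.2% lower. The median log2 ratio, after adding 1 to each value, was 0.40 over the members and 0.07 over all sequences. In shoots, 10 members passed the filter, of which miR167b was higher and miR160a lower, against 17.9% higher and 27.9% lower of 140 sequences. The shoot medians were -0.11 for the members and -0.23 for all. Before 1 is added, another scaling shifts every log2 ratio of LP over CK alike: in shoots by 0.39 with TMM, 0.16 with the median of ratios and -0.11 by table total, and in roots by 0.18 by table total, -0.05 with TMM and -0.03 with the median of ratios. Over all sequences the shoot split of 25 higher and 39 lower became 48 and 23 under TMM and 36 and 32 under the median of ratios.

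Other miRNAs of auxin signalling were set beside these families. miR390, which starts the production of small RNAs against further auxin response factors, had a level of 1848 in shoot LP and 4124 in shoot CK, a ratio of 0.448 (0.428 to 0.469), and a ratio of 0.590 (0.530 to 0.657) in roots. The TMM shift of 0.39 puts the shoot log2 ratio of miR390, -1.16, under the 2-fold line. miR393, which acts on auxin receptors, had ratios of 0.904 (0.752 to 1.09) in shoots and 1.08 (0.863 to 1.34) in roots. Of the 2 sequences of miR390 past the filter, 1 was at least 2-fold lower in shoots and none in roots, and neither of the 2 of miR393 past the filter was called in either tissue.

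Within a library, members can be set against each other without any scaling between libraries. Reads of the 22-nt miR167b per read of the 21-nt miR167a were 0.410 (0.359 to 0.469) in root LP and 0.693 (0.634 to 0.758) in root CK. They were 7.07 (6.81 to 7.34) in shoot LP and 1.48 (1.43 to 1.53) in shoot CK. The ratio was therefore 0.592 times (0.506 to 0.693) its CK value in root LP and 4.77 times (4.54 to 5.01) in shoot LP. miR167b made up 84.6% of the family's reads in shoot LP and 55.8% in shoot CK, against 22.6% in root LP and 29.7% in root CK. Over the 22-nt sequences past the filter, the median LP over CK log2 ratio was 0.38 in shoots (19 sequences, miR167b at rank 2 from the top with 1.88) and -0.50 in roots (17 sequences, miR167b at rank 5 with 0.00). The part of sequence length in the miR167b values was not tested. Raw values of miR167b and miR167c are fractional in roots, as are those of miR160b in shoot LP and of miR160c in shoots. The source of these fractions was not tested.

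**Figure D3:**
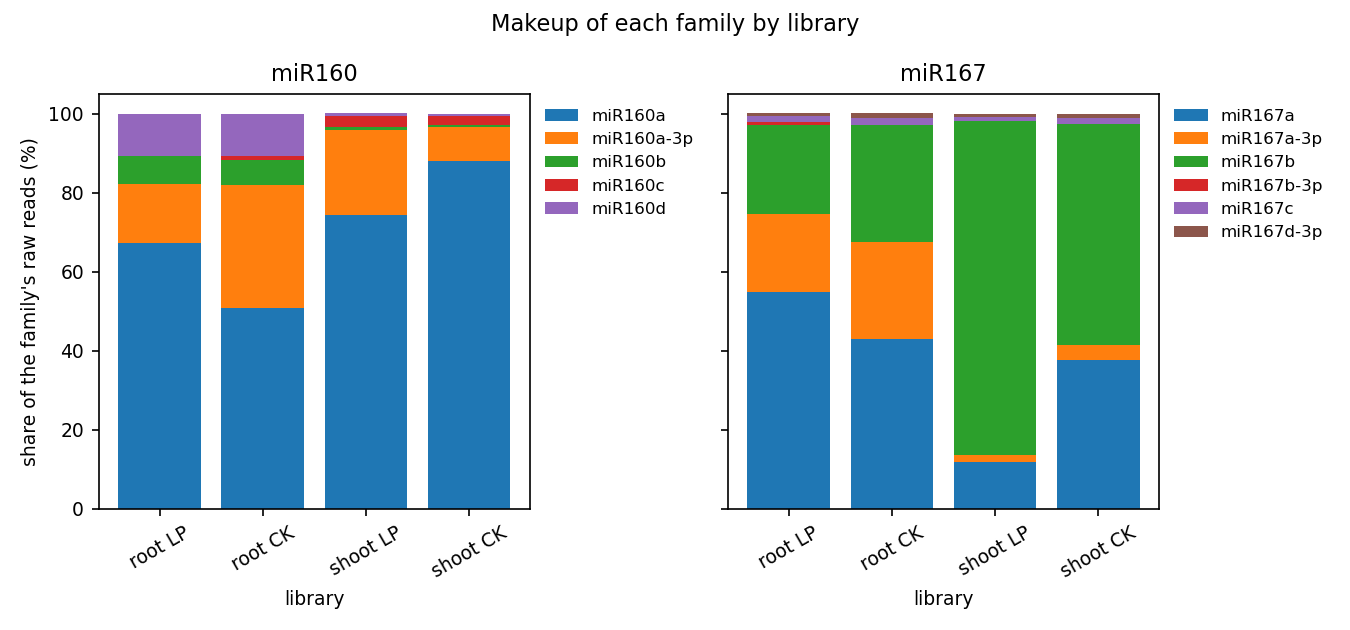
Share of each family's raw reads (%) held by each member in the 4 libraries, as stacked bars. In miR167 the share of miR167b is 84.6% in shoot LP and 55.8% in shoot CK, and in miR160 the 20-nt forms miR160b and miR160d are visible in roots and almost absent in shoots.

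The balance of miR160a-3p and miR160a also differed between LP and CK, in opposite directions in roots and shoots. No genome was used, so the reads of either sequence could not be tied to the miR160a hairpin alone. Reads of miR160a-3p per read of miR160a were 0.222 (0.191 to 0.257) in root LP and 0.614 (0.563 to 0.669) in root CK. They were 0.290 (0.261 to 0.322) in shoot LP and 0.0978 (0.0892 to 0.107) in shoot CK. The LP value was 0.362 times (0.305 to 0.428) the CK value in roots and 2.97 times (2.58 to 3.40) in shoots. For miR167a-3p over miR167a, the LP value was 0.620 times (0.525 to 0.732) the CK value in roots and 1.40 times (1.23 to 1.60) in shoots. The arms of miR167c were closer in number in shoots. Reads of miR167d-3p per read of miR167c were 0.918 (0.762 to 1.11) in shoot LP and 0.769 (0.635 to 0.930) in shoot CK. They were 0.340 (0.129 to 0.767) in root LP and 0.674 (0.412 to 1.06) in root CK.

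Other hairpins were compared in the same way. Of 16 outside both families with at least 10 reads of each arm in both shoot libraries, 11 had a larger 3p share under LP, with a median log2 change of 0.35, and of 13 in roots 9 had a smaller one, with a median of -0.35. With those of the families included, of 19 hairpins with such reads in shoots, 14 had a larger 3p share under LP, with a median log2 change of 0.41, and miR160a had the largest change, 1.57. Of 15 in roots, 11 had a smaller 3p share under LP, with the same rounded median of -0.35, and miR160a was next to lowest at -1.47. miR167a had rank 8 from the top in shoots (0.49) and rank 10 in roots (-0.69).

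**Figure D4:**
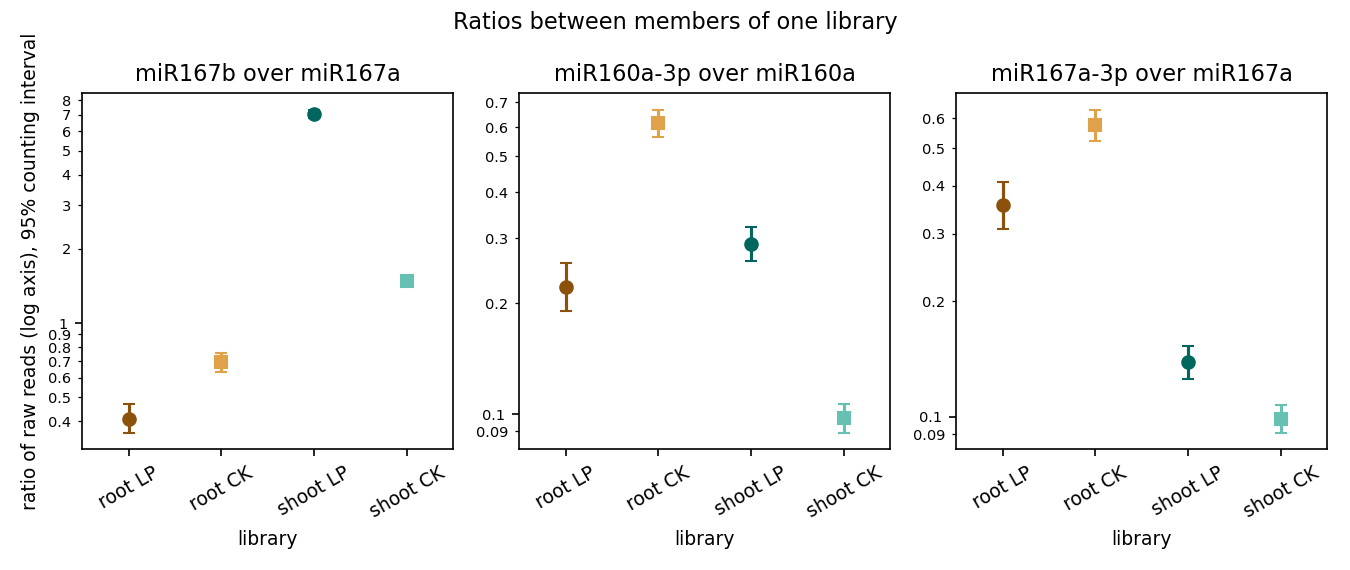
Ratios of raw reads between members of the same library (log axes), with 95% counting intervals: miR167b over miR167a, miR160a-3p over miR160a, and miR167a-3p over miR167a. miR167b over miR167a is 7.07 in shoot LP and 1.48 in shoot CK; both arm ratios are lower in root LP than in root CK and higher in shoot LP than in shoot CK.

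Roots held far more of the 20-nt miR160 forms than shoots, and far less of miR167b. In whole tissues, fewer cells that make a miRNA and less of it per cell cannot be told apart. miR160d had a root over shoot ratio of 34.1 (20.4 to 61.2) under LP and 19.0 (13.1 to 28.5) under CK, and miR160b of 29.7 (16.0 to 55.3) under LP and 11.5 (7.75 to 17.5) under CK. They had ranks 1 and 2 of 18 sequences of 20 nt past the filter under LP, whose median log2 ratio was 1.48, and ranks 1 and 3 of 16 under CK, with a median of -0.23. Per read of miR160a in the same library, miR160d was 15.6 times (9.30 to 26.3) as frequent in roots as in shoots under LP and 36.5 times (25.1 to 53.1) under CK.

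miR167b was the member with the lowest root over shoot ratio among those with reads in each library, 0.0495 (0.0442 to 0.0554) under LP and 0.181 (0.169 to 0.195) under CK. miR167c had root over shoot ratios of 0.338 (0.217 to 0.526) under LP and 0.368 (0.268 to 0.508) under CK. The 3p form miR167d-3p had 0.126 (0.0535 to 0.252) under LP and 0.323 (0.215 to 0.471) under CK. The passenger strand miR167a-3p stood on the other side, at 2.19 (1.88 to 2.56) under LP and 2.25 (2.02 to 2.51) under CK, and miR160a-3p at 1.67 (1.41 to 1.97) under LP and 3.27 (2.93 to 3.65) under CK. miR160a changed side with treatment, at 2.18 (2.01 to 2.36) under LP and 0.521 (0.491 to 0.553) under CK, and the LP values of miR160a and miR167a-3p were both under 2-fold by TMM, each with a log2 ratio of 0.80. miR167a had 0.853 (0.787 to 0.923) under LP and 0.387 (0.364 to 0.412) under CK.

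**Figure D5:**
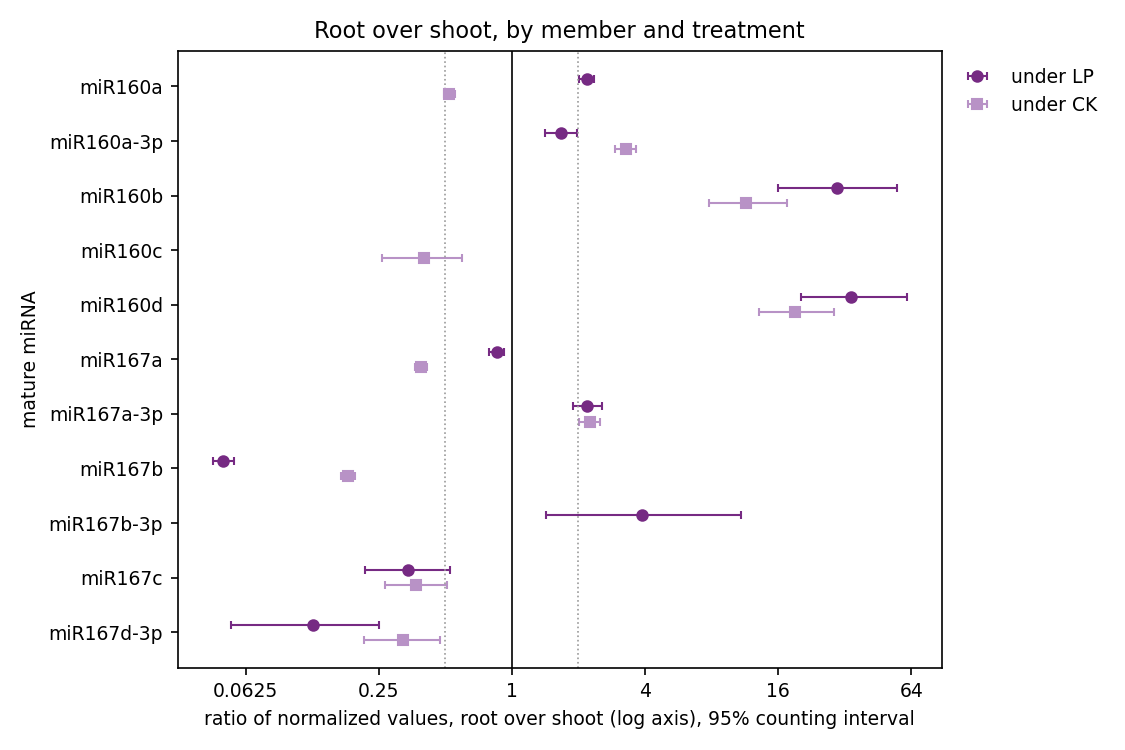
Ratio of normalized values, root over shoot (log axis), for each member under LP (circles) and CK (squares), with 95% counting intervals; dotted lines mark 2-fold, and ratios involving a value of 0 are not drawn. miR160b and miR160d lie far to the right of 1 under both treatments, and miR167b far to the left.

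Under LP, 5 of 11 members were at least 2-fold higher in roots than in shoots and 4 lower, against 34.8% and 38% of all sequences past the filter. Among them, miR167b-3p was called higher on 10 root and 9 shoot reads, and miR160c lower on a 0 in root LP. Under CK, miR160c had a root over shoot ratio of 0.400 (0.258 to 0.597). Under CK, 4 of 10 were higher and 5 lower, against 26.1% and 38%. These splits depend on the scaling, because dividing by the table total in place of the authors' constants adds 1.02 to the log2 of a plain root over shoot ratio under LP and 0.73 under CK. Over all sequences the split under LP was 55 higher and 60 lower with the authors' constants, 84 and 37 by table total and 44 and 73 by TMM, and under CK 37 and 54 against 56 and 37 by table total. The table total turned miR167a under LP from a log2 ratio of -0.23 to 0.79, while miR160b, miR160d and miR167b kept their side of the 2-fold line under all 3 other scalings.

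The sequences outside both families whose profiles over the 4 libraries came nearest were found by Euclidean distance of mean-centred log2 levels, among 84 sequences with a level of at least 100 in 1 library. For miR167b the nearest was miR408a, at a distance of 0.35, with a level of 17.5 in root LP, 12.9 in root CK, 349.98 in shoot LP and 104 in shoot CK. The next were miR482a at 1.22 and blu-miR13-3p at 1.26. For miR160a they were miR2950a at 0.50, miR168a at 0.57 and miR396a at 0.82. For the family sums they were miR162a-p5 (0.56), miR168a (0.59) and miR156a/b/c (0.63) for miR160, and miR403a (0.70), miR7122a (0.71) and miR399a (0.86) for miR167. With 4 points per profile, such nearness is a description of these libraries. Each read in root LP counts as 2.73 normalized units, so the levels there of miR408a (17.5) and blu-miR13-3p (13.6) rest on few reads. In root CK the factor is 1.02, so the 12.9 of miR408a also rests on few reads. The counting error of the distances was not estimated.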

How the data were processed

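The raw columns of the authors' table hold estimated counts of reads per mature miRNA, named raw per the file headers, and 4 of the 11 members have fractional values. The normalized columns are the authors' signal: in every row it equals the raw value times 1 factor for the library, 2.73 for root LP, 1.02 for root CK, 0.780 for shoot LP and 0.517 for shoot CK. The choice of factors, the aligner and the counting program are not stated in those sources, and 2 lines of the table were blank. The 221 rows were reduced to 215 distinct sequences, since repeated rows hold equal values. Ratios have exact conditional Clopper-Pearson intervals from rounded reads, shares exact binomial ones, and ratios of ratios normal intervals on the log scale, all at 95%. A pseudocount of 1 was added before log2. Scaling by TMM (edgeR 4.0.16) and by the median of ratios (DESeq2 1.42.0) served as alternatives. The ratio intervals alone were tested on simulated counts (Python 3.11.15, scipy 1.17.1). Those counts had only the counting error that the intervals assume, so PCR copies and spread between plants were not covered. Members and lists were chosen with earlier results of these data known. Each member was described, miR390 and miR393 stood for other auxin miRNAs, and the table had 0 sequences named miR847. The table has no defining marker of root or shoot tissue that could check the labels.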

Additional observations from a re-analysis of the deposited data

Results flagged for a closer look

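For miR160 and some members, the LP over CK ratio lay above 1 in 1 tissue and below 1 in the other, with counting intervals that exclude 1 in both. The miR160 sum had 1.41 in roots and 0.528 in shoots, miR160a 1.87 in roots and 0.447 in shoots, and miR167a 1.69 in roots and 0.769 in shoots, the last turning to a log2 ratio of 0.02 under TMM scaling. miR160a-3p had the opposite pair, 0.676 in roots and 1.32 in shoots. The difference between the tissues was not tested, since each ratio rests on 1 library per treatment.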

How the results depend on the processing

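No paired analysis was possible because each group has 1 library, and for the same reason no library could be left out. Root LP, with the fewest reads, limits what can be seen of miR160c, miR167c, miR167d-3p and miR167b-3p. The following are log2 ratios after adding 1. For miR160, LP over CK in roots was 0.50, with 0.68 by table total and 0.90 for miR160a alone. In shoots it was -0.92, with -1.02 by table total, -0.53 by TMM, -0.76 by the median of ratios and -1.16 for miR160a alone. Root over shoot under LP was 1.27, with 2.29 by table total, 0.94 by TMM and 1.12 for miR160a alone. Under CK it was -0.15, with 0.59 by table total, -0.031 by TMM, 0.10 by the median of ratios and -0.94 for miR160a alone, so its direction depends on the scaling.

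For miR167, LP over CK in roots was 0.40, with 0.58 by table total and 0.00401 for miR167b alone. In shoots it was 1.28, with 1.17 by table total, 1.67 by TMM, 1.44 by the median of ratios and 1.88 for miR167b alone, all past 2-fold. Root over shoot under LP was -2.43, with -1.41 by table total, -2.76 by TMM and -4.33 for miR167b alone. Under CK it was -1.55, with -0.82 by table total, -1.44 by TMM, -1.30 by the median of ratios and -2.46 for miR167b alone. A pseudocount of 10 and rows as deposited left the family ratios within their counting intervals.

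The number of members called moved as follows. In roots under LP, 1 higher became 2 by table total, with miR160a, and the 1 higher and 1 lower both became 0 with a minimum of 100. In shoots, 1 higher became 2 by TMM, with miR167d-3p, and 2 with no minimum, and 1 lower became 0 by TMM and 0 by the median of ratios. Root over shoot, 5 higher under LP became 3 by TMM, and 5 lower under CK became 1 by table total. Of 172 single member ratios under another scaling or pseudocount, 121 stayed within their counting interval, 51 moved outside it, and 5 changed sign, none of them a called ratio. The cause of these differences was not tested beyond the scaling shifts given above.

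Over all sequences, the counts of 35 higher and 26 lower in roots were 6 and 12 with a minimum of 100 and 41 and 61 with no minimum. In shoots, 25 and 39 were 9 and 19 with a minimum of 100 and 42 and 62 with no minimum. Root over shoot, 55 and 60 under LP were 24 and 31 with a minimum of 100 and 63 and 92 with no minimum, and 37 and 54 under CK were 21 and 33 with a minimum of 100 and 50 and 82 with no minimum.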
